A study of Homo sapiens and Mus musculus with 18 samples.

Results

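The 10 genes described here, KDR, PECAM1, CDH5, TAL1, ETV2, SOX18, TIE1, RUNX1, CD34 and GATA1, mark the endothelium that lines blood vessels and the progenitors of blood. They were taken by gene symbol from the human count table and by the same name from the mouse count table, which gave 10 of 44910 human genes and 10 of 29720 mouse genes. In the embryo, the endothelium and the first blood cells arise from mesoderm that expresses KDR, the main receptor for VEGF. The ETS factor ETV2 and the basic helix-loop-helix factor TAL1 act early in this step. Differentiated endothelium then carries VE-cadherin (encoded by CDH5), PECAM1, CD34 and the receptor TIE1, while RUNX1 is needed for blood to emerge from endothelium and GATA1 drives erythroid and megakaryocyte differentiation.

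RNA was sequenced from 18 samples in 9 groups of 2 biological replicates. The human groups were naïve ESCs of the H9 line (chemically reset cells held in PXGL medium on irradiated mouse embryonic fibroblasts, which were then removed over successive passages), primed H9 and primed RUES2-GLR ESCs grown without feeders, and RA-gastruloids made from the RUES2-GLR line and taken at 24 h (early) or 120 h (late). RA-gastruloids are aggregates of ESCs that were exposed to CHIR99021, which activates WNT signalling, and to retinoic acid (RA), and they received Matrigel and more RA after the early sampling. The mouse groups were all of the E14 ESC line: naïve ESCs in 2i and LIF, epiblast-like cells (EpiLCs) made with activin A and bFGF, and gastruloids grown in N2B27 medium with a pulse of CHIR99021 and taken at 72 h (early) or 144 h (late). Each gastruloid series thus came from 1 line, and the species differed in RA, Matrigel and sampling time, so effects of species and of protocol cannot be told apart. Total counts per sample ran from 3681739 (primed RUES2-GLR replicate 2) to 38771193 (primed H9 replicate 2) in human, and from 6487157 to 20052505 in mouse. The summed level of 4 pluripotency genes (POU5F1, NANOG, TDGF1 and DPPA4) averaged 1464 CPM in naïve H9, 1624 in primed H9, 1457 in primed RUES2-GLR, 379 in RA-gastruloids at 24 h and 82.3 at 120 h. At 120 h, DPPA4 alone held 81.8 CPM and POU5F1 0.50, with NANOG and TDGF1 at 0 counts. The 3 of these genes found by symbol in mouse (Pou5f1, Nanog and Dppa4) summed to 2110 CPM in naïve ESCs, 1121 in EpiLCs, 1385 in early and 134 in late gastruloids. Tdgf1 was not found by that symbol, so the mouse sum cannot be set beside the human one. CPM here is the read count scaled to library size with edgeR's TMM factors.

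Between early and late gastruloids, most of these genes rose by edgeR in both species. A gene passed the test when edgeR's quasi-likelihood test gave a Benjamini-Hochberg adjusted p under 0.05 and the absolute log2 fold change exceeded 1, and 9 of the 10 genes were abundant enough to be tested in each species, GATA1 being the exception in both. From early to late RA-gastruloids, 6 of the 9 rose and 2 fell, where 24.9% of all tested genes passed (11.8% higher and 13.2% lower). By DESeq2 only 4 of the 9 rose there, without ETV2 and TAL1, and 2 fell. In mouse, 8 rose and 1 fell, where 39.2% of all genes passed (20.1% higher and 19.1% lower). The median log2 fold change over the 9 genes was 1.67 in human and 2.76 in mouse, against 0 and -0.03 over all tested genes. These are bulk samples, in which fewer cells of a type and less RNA per cell cannot be told apart.

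**Figure D1:**
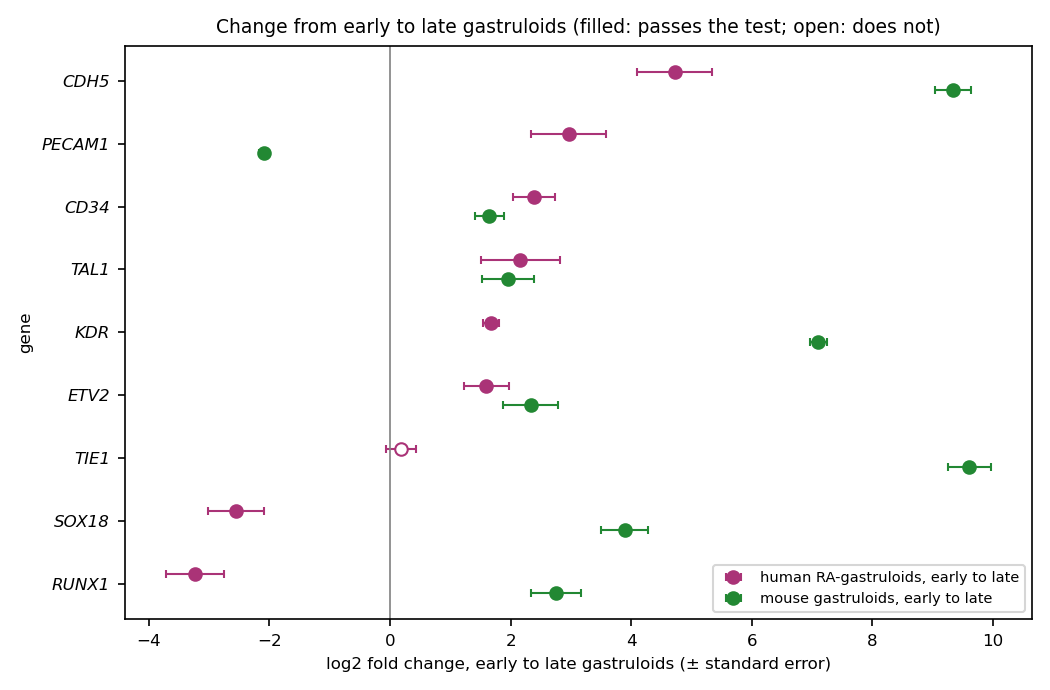
Log2 fold change from early to late gastruloids (horizontal axis, with the standard error from edgeR) of the 9 tested genes (vertical axis) in human RA-gastruloids and mouse gastruloids, with filled points for genes that passed the test. KDR, TIE1 and CDH5 lie far higher in mouse (7.10, 9.61 and 9.33) than in human (1.67, 0.19 and 4.73), while RUNX1, SOX18 and PECAM1 have opposite signs in the species. The points of CDH5 in both species and of Tie1 rest on 1 or 2 counts in the early gastruloids.

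The same genes were followed in the other comparisons. From naïve to primed H9 ESCs, 3 of 9 rose and 4 fell (47.8% of all genes passed, 25.5% higher and 22.3% lower). Of the primed lines, 2 genes were higher in RUES2-GLR and 0 lower (29.3% passed, 17.1% higher and 12.2% lower), with 3 at an unadjusted p under 0.05 by edgeR and 2 called by DESeq2. Over all tested genes, this split depended on the scaling. It was 3130 higher and 2227 lower with TMM factors, and 3685 and 1492 with upper-quartile scaling. From the RUES2-GLR line to its early RA-gastruloids, 2 rose and 4 fell (29.6% passed, 12% higher and 17.6% lower). In mouse, 5 rose and 2 fell from naïve ESCs to EpiLCs (29.8% passed, 17.7% higher and 12.1% lower), 2 rose and 6 fell from EpiLCs to early gastruloids (20.9% passed, 11.7% higher and 9.24% lower), and 2 rose and 1 fell from naïve ESCs, the source of the gastruloids, to early gastruloids (23% passed, 16.2% higher and 6.81% lower). Neighbouring comparisons share a group, so their counts are not independent.

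The receptors KDR and TIE1 are both tyrosine kinases of the endothelium. KDR (ENSG00000128052, GRCh38 chr4:55078481-55125595, minus strand) binds VEGF, and TIE1 (ENSG00000066056, chr1:43300982-43323108, plus strand) works with TEK in angiopoietin signalling. Mouse Kdr lies at GRCm39 chr5:76093487-76139118 and Tie1 at chr4:118328388-118347258, both on the minus strand. Both human genes were higher in primed ESCs than in any other human group, and both mouse genes stayed under 2 CPM until late gastruloids. Their promoters are therefore shown, as the 250 bases before the start of each gene in the deposited tables. GENCODE M39 also holds a longer model of mouse Kdr that starts at 76139884, so the Kdr window lies within the gene by that annotation. The human sequences were taken from RefSeq (GRCh38.p14, KDR at chr4:55125596-55125845 and TIE1 at chr1:43300732-43300981) and the mouse ones from the GRCm39 genome (Kdr at chr5:76139119-76139368 and Tie1 at chr4:118347259-118347508), each 5' to 3' on the strand of its gene, with the ETS core GGAA on either strand in capitals (TTCC on the reverse).
KDR: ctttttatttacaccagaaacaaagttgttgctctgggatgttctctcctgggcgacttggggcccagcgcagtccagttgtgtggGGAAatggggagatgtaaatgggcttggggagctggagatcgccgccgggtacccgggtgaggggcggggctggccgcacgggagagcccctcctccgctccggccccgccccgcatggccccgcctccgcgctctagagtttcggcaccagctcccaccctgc
TIE1: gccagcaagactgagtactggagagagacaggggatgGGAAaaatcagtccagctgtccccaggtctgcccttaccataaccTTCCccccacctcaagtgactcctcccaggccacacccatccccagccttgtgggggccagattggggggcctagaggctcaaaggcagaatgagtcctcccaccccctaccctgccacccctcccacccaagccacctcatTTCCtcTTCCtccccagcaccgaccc
Kdr: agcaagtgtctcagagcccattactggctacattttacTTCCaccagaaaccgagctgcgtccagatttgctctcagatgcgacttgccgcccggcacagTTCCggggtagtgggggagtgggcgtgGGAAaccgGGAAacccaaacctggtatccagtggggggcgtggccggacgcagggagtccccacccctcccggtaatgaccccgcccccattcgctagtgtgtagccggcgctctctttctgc
Tie1: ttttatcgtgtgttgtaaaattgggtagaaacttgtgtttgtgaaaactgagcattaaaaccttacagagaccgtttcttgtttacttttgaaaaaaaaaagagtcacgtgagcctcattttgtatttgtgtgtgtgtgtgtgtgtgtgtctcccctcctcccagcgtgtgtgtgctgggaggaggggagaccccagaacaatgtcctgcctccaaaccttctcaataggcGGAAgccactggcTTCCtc
The windows held 1, 4, 4 and 2 ETS cores in KDR, TIE1, Kdr and Tie1. An ETS core was present in 92.7% of 35116 human and 93.3% of 17423 mouse promoter windows of this length, with a median of 3 in both. The E-box CANNTG occurred 1, 2, 2 and 1 times (61.8% of human and 61.4% of mouse windows hold it), and neither the GATA site AGATAA nor the RUNX core TGTGGT was found in any of these 4 windows (9.2% and 11% of human windows, 7.4% and 12.1% of mouse windows). Both strands were searched, and none of the 4 motifs contains another. Aligned end to end, the KDR and Kdr windows were 53.9% identical and the TIE1 and Tie1 windows 42.5%, beside 44.5% between KDR and TIE1 and 45.8% between Kdr and Tie1. The windows of KDR and Kdr held 17 and 16 CpG dinucleotides, and those of TIE1 and Tie1 held 1 and 5. The RefSeq promoter table matched 7 of the 10 human genes (not PECAM1, CDH5 and SOX18).

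KDR was at 3.03 and 2.58 CPM in the naïve H9 libraries, 110.3 and 112 in primed H9, 99.5 and 104 in primed RUES2-GLR, 15.5 and 16.0 in RA-gastruloids at 24 h and 54.4 and 45.5 at 120 h. No 2 of the 5 groups overlapped, and the order by mean was primed H9, primed RUES2-GLR, late, early and naïve. KDR rose from naïve to primed H9 by 5.30 on the log2 scale (SE 0.15, edgeR adjusted p = 1.53e-23), fell by 2.69 from the RUES2-GLR line to its early RA-gastruloids (SE 0.13, adjusted p = 4.12e-17) and rose by 1.67 to late ones (SE 0.13, adjusted p = 3.34e-12). The primed lines did not pass the test for KDR (log2 fold change -0.13, SE 0.11, adjusted p = 0.349), a sign that turned with DESeq2's size factors, and the median over all tested genes in this comparison was -0.12. On the TPM scale, per transcript length, KDR stood at 76.4 in primed H9 and 34.5 in primed RUES2-GLR, so the distance between these lines depends on the scale. It averaged 9.70 TPM in early and 31.5 in late RA-gastruloids, both closer to RUES2-GLR than by CPM.

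In mouse, Kdr was at 1.81 and 1.97 CPM in naïve ESCs, 0.148 and 0.0658 in EpiLCs, 0.988 and 0.879 in early gastruloids and 134.6 and 129 in late ones. Every late sample lay above every other sample, and EpiLCs were lowest, with 1 count in each library. Kdr rose by 7.10 on the log2 scale from early to late (SE 0.14, edgeR adjusted p = 3.1e-45). The fall from naïve ESCs to EpiLCs was 21-fold by summed counts (35 against 2 counts, 95% interval 5.39 to 180.1). Early gastruloids were 10.4-fold above EpiLCs (30 against 2 counts, 95% interval 2.64 to 90.0), and the difference between naïve ESCs and early gastruloids was -1.002 on the log2 scale (adjusted p = 0.0111), a call that ended in 3 other settings and without naïve replicate 2 or early replicate 2, at log2 values of -0.93 to -0.996.

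TIE1, like KDR, was higher in both primed lines than in the other human groups. It was at 0.105 and 0.0574 CPM in naïve H9, 7.20 and 8.86 in primed H9, 12.4 and 11.5 in primed RUES2-GLR, 3.27 and 3.53 in RA-gastruloids at 24 h and 3.73 and 4.08 at 120 h. The 2 naïve libraries held 3 counts in all against 475 in primed H9, a ratio of 103 (95% interval 35 to 501), and the fall from primed RUES2-GLR to early RA-gastruloids was -1.84 on the log2 scale (SE 0.23, adjusted p = 5.93e-08). By TPM this fall was smaller, from 4.07 and 3.61 to 1.90 and 2.06. From early to late, TIE1 changed by 0.19 (SE 0.25, adjusted p = 0.561), which did not pass. The highest mean was in primed RUES2-GLR by CPM and in primed H9 by TPM (3.84 against 5.23). In mouse, Tie1 had 1 and 1 counts in naïve ESCs, 6 and 11 in EpiLCs, 0 and 1 in early gastruloids and 293 and 222 in late gastruloids. The late samples, at 34.2 and 33.1 CPM, stood apart from all the others, and the ratio of late to early was 1066 (95% interval 190.4 to 42170, counting error only). EpiLCs exceeded both naïve ESCs and early gastruloids, with adjusted p = 0.0043 and 5.34e-05 by edgeR, and the first call ended without naïve replicate 2 (adjusted p = 0.0675).

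CDH5, PECAM1 and CD34 encode proteins of the endothelial surface. CDH5 (ENSG00000179776, chr16:66366622-66404784, plus strand) encodes the cadherin of endothelial junctions. It was at 28.6 and 25.1 CPM in naïve H9, 1.05 and 1.17 in primed H9, 2.95 and 1.59 in primed RUES2-GLR, 0.192 and 0 in RA-gastruloids at 24 h and 3.25 and 2.04 at 120 h. The naïve samples lay above all other human samples, and late RA-gastruloids overlapped primed RUES2-GLR ESCs. CDH5 fell by 4.56 on the log2 scale from naïve to primed H9 (SE 0.22, edgeR adjusted p = 5.5e-18). It was higher in primed RUES2-GLR than in primed H9 by 1.21 (adjusted p = 0.00363), a call that ended without RUES2-GLR replicate 1 (0.62). On the TPM scale these lines overlapped, at 1.06 and 0.553 in RUES2-GLR and 0.757 and 0.834 in primed H9. This difference thus depends on the scale. Early RA-gastruloids then held 2 counts against 41 in the RUES2-GLR line, 27.1-fold fewer (95% interval 7.05 to 232), both of them in early replicate 1. Late RA-gastruloids held 87 counts against 2 in early ones, a ratio of 29.0 (95% interval 7.8 to 244) that passed the test at adjusted p = 1.4e-07. Its log2 fold change ran from 3.82 to 8.53 when 1 library was left out. Mouse Cdh5 (chr8:104828257-104871143) had 0 counts in all 4 naïve and EpiLC libraries, which allows up to 0.419 and 0.269 CPM in the naïve libraries and 0.444 and 0.197 CPM in those of EpiLCs. Early gastruloids held 2 and 0 counts, and late gastruloids 391 and 342 (45.6 and 50.9 CPM). Cdh5 was thus 758-fold higher in late than in early gastruloids (95% interval 209 to 6274, edgeR adjusted p = 2.83e-34). It was abundant enough to be tested only through the late samples, so this p is no separate support for the rise. Leaving out 1 library gave log2 fold changes of 8.76 to 11.84, where all libraries gave 9.33.

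PECAM1 (ENSG00000261371, chr17:64319415-64413776, minus strand), an adhesion molecule of endothelium, platelets and leukocytes, went opposite ways in the species from early to late gastruloids. Human PECAM1 was low throughout, at 0.784 and 0.631 CPM in naïve H9, 0.21 and 0.286 in primed H9, 1.47 and 1.27 in primed RUES2-GLR, 0.192 and 0.202 in RA-gastruloids at 24 h and 1.75 and 1.32 at 120 h. Late samples lay above early ones and overlapped primed RUES2-GLR. The rise from early to late was 2.96 on the log2 scale (SE 0.62, edgeR adjusted p = 0.00016). PECAM1 was higher in primed RUES2-GLR than in primed H9 (2.40, adjusted p = 0.000274) and fell by 2.81 from there to early RA-gastruloids (adjusted p = 0.000937), calls that both ended without RUES2-GLR replicate 1, at 2.37 and -2.73. Both differences were smaller by TPM. It was at 0.417 and 0.348 in RUES2-GLR, 0.119 and 0.160 in primed H9, and 0.0967 and 0.102 in early RA-gastruloids. The fall from naïve to primed H9 (-1.40, adjusted p = 0.0136) did not pass in DESeq2 (adjusted p = 0.129) and ended without naïve replicate 1 or either primed replicate (-1.70 to -1.27). Mouse Pecam1 (chr11:106545043-106641454) was high in ESCs, at 126 and 124 CPM in naïve cells, 48.6 and 54.9 in EpiLCs, 128 and 125 in early gastruloids and 29.3 and 30.2 in late ones. Naïve ESCs and early gastruloids overlapped, and both late samples lay below every other sample. Pecam1 fell by 1.25 on the log2 scale from naïve ESCs to EpiLCs, the direction also seen in H9. It rose by 1.27 from EpiLCs to early gastruloids. Pecam1 fell by 2.09 on the log2 scale from early to late (SE 0.08, adjusted p = 3.86e-31), the only one of the 9 mouse genes to fall at this step.

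CD34 (ENSG00000174059, chr1:207880972-207911402, minus strand), a sialomucin of endothelial and blood stem cells, was at 5.14 and 5.20 CPM in late RA-gastruloids and between 0.706 and 1.91 CPM in the other 8 human samples. Late samples were above every other human sample, by 2.38 on the log2 scale over early ones (SE 0.35, edgeR adjusted p = 7.9e-07). In mouse, Cd34 (chr1:194621127-194643587) was at 0.419 and 0.987 CPM in naïve ESCs, 7.24 and 6.58 in EpiLCs, 2.42 and 3.61 in early and 8.76 and 9.38 in late gastruloids. Again the late samples were highest, and here the groups did not overlap. Cd34 rose by 3.14 from naïve ESCs to EpiLCs (adjusted p = 1.54e-11), fell by 1.24 from EpiLCs to early gastruloids (adjusted p = 7.26e-06; -0.92 without early replicate 1, under the fold threshold) and rose by 1.65 to late gastruloids (SE 0.24, adjusted p = 1.14e-08).

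**Figure D2:**
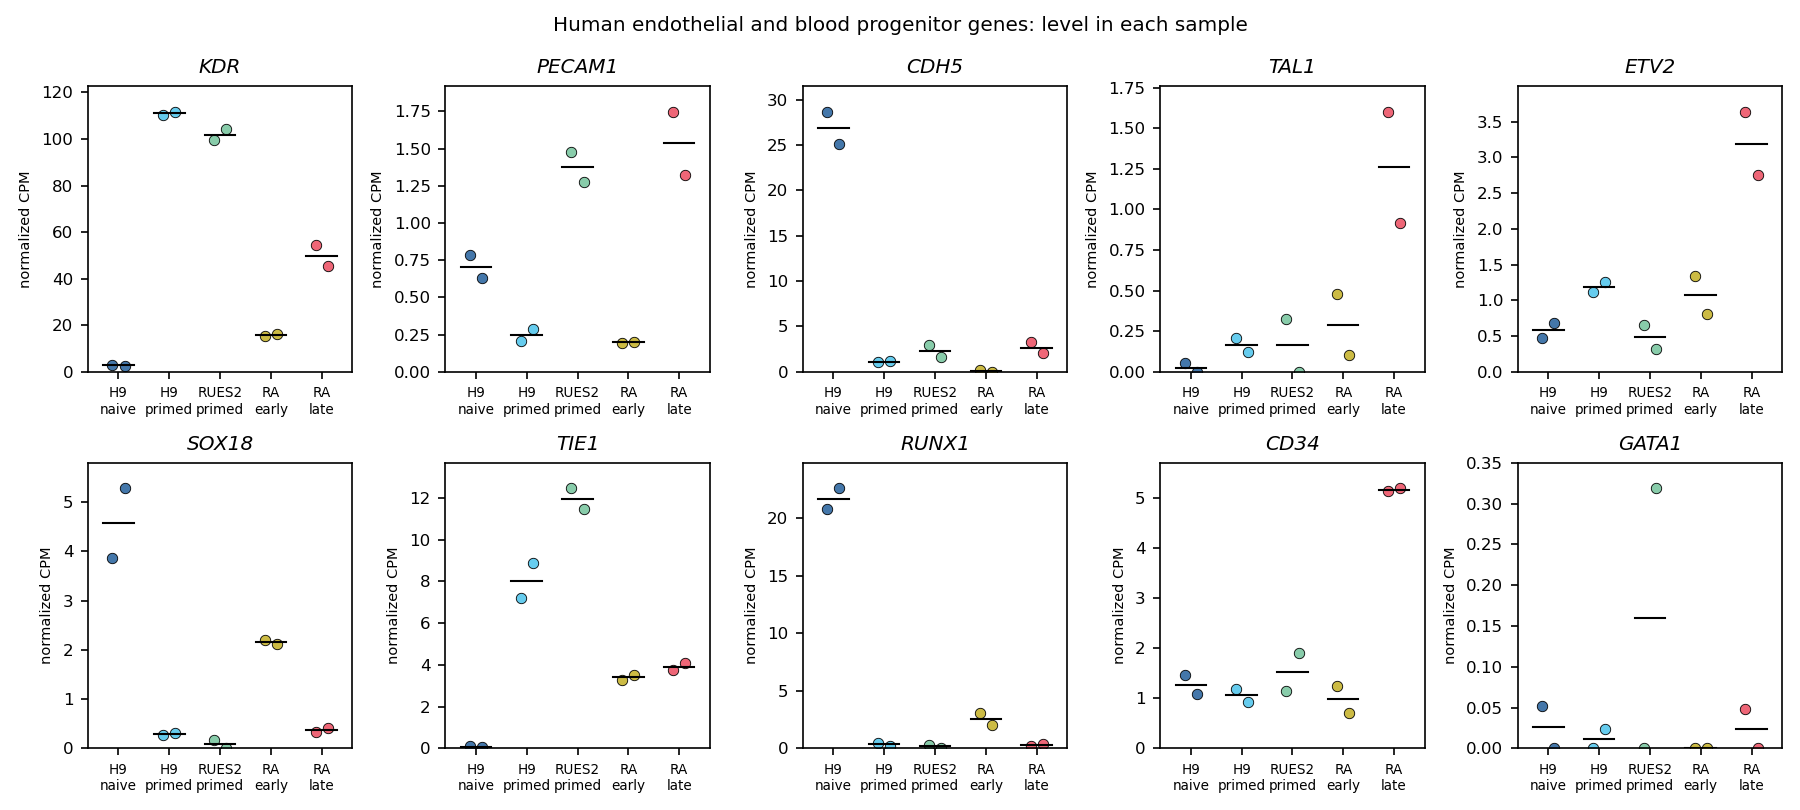
Level of each of the 10 human genes (vertical axis, TMM-normalized CPM, own scale per panel) in the 2 replicates (points) and their mean (line) of naïve H9, primed H9, primed RUES2-GLR, and early and late RA-gastruloids. KDR and TIE1 are highest in the primed lines, CDH5, SOX18 and RUNX1 in naïve H9, and CD34, ETV2 and TAL1 in late RA-gastruloids, while GATA1 has at most 1 count in any library.

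ETV2 and SOX18 are transcription factors of the endothelial lineage. ETV2 (ENSG00000105672, chr19:35641745-35644871, plus strand) was at 0.47 and 0.688 CPM in naïve H9, 1.12 and 1.26 in primed H9, 0.655 and 0.319 in primed RUES2-GLR, 1.35 and 0.807 in RA-gastruloids at 24 h and 3.64 and 2.75 at 120 h. Late samples lay above every other human sample. The rise from early to late was 1.60 on the log2 scale (SE 0.37, edgeR adjusted p = 0.000528), and DESeq2 gave an adjusted p of 0.0619. The rise from naïve to primed H9 (1.07, adjusted p = 0.0163) likewise did not pass in DESeq2 (adjusted p = 0.279), nor without naïve replicate 1 (0.77) or primed replicate 2 (0.965). Mouse Etv2 (chr7:30333041-30335277) was at 1.12 and 0.897 CPM in naïve ESCs, 0.887 and 1.38 in EpiLCs, 0.642 and 0.352 in early and 3.27 and 2.08 in late gastruloids. It too was highest in both late samples, with a rise of 2.33 over early ones (SE 0.46, adjusted p = 1.01e-05). Its fall from EpiLCs to early gastruloids (-1.17, adjusted p = 0.0415) ended in DESeq2 (adjusted p = 0.222) and without EpiLC replicate 2, early replicate 1 or early replicate 2, with values from -1.75 to -0.72.

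SOX18 (ENSG00000203883, chr20:64047582-64049639, minus strand) was at 3.87 and 5.28 CPM in naïve H9, 0.28 and 0.31 in primed H9, 0.164 and 0 in primed RUES2-GLR, 2.21 and 2.12 in RA-gastruloids at 24 h and 0.339 and 0.408 at 120 h. Early RA-gastruloids stood between naïve H9 and the rest. The 0 counts of primed RUES2-GLR replicate 2 allow up to 0.956 CPM, so this line is not shown to lie below primed H9 or late RA-gastruloids. SOX18 fell by 2.55 on the log2 scale from early to late (SE 0.47, edgeR adjusted p = 3.12e-05). Early RA-gastruloids held 44 counts against 2 in primed RUES2-GLR, a ratio of 16.6 (95% interval 4.34 to 142), both of the latter in replicate 1. In mouse, Sox18 (chr2:181311629-181313433) was at 0.14 and 0.718 CPM in naïve ESCs, 1.33 and 1.91 in EpiLCs, 0.741 and 0.0879 in early gastruloids and 8.17 and 6.85 in late ones. The late samples were highest, and naïve ESCs and early gastruloids overlapped. The rise from early to late was 3.89 (SE 0.38, adjusted p = 1.55e-13), the reverse of the human direction, and 6.23 without early replicate 1. Sox18 also rose from naïve ESCs to EpiLCs (1.79, adjusted p = 0.00517) and fell by 1.76 to early gastruloids (adjusted p = 0.00164), the first of which ended without naïve replicate 1 (1.24) and both without EpiLC replicate 2 (1.42 and -1.39). These values also reached 3.51 without naïve replicate 2 and -4.10 without early replicate 1.

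TAL1, RUNX1 and GATA1 are transcription factors of the blood lineage. TAL1 (ENSG00000162367, chr1:47216290-47232225, minus strand) had 1 and 0 counts in naïve H9, 3 and 5 in primed H9, 4 and 0 in primed RUES2-GLR, 5 and 1 in RA-gastruloids at 24 h and 33 and 9 at 120 h. Late samples, at 1.60 and 0.917 CPM, were above the measured level of every other human sample, although the 0 counts of primed RUES2-GLR replicate 2 allow up to 0.956 CPM. They exceeded early ones by 2.16 on the log2 scale (SE 0.66, edgeR adjusted p = 0.00665). DESeq2 gave an adjusted p of 0.226 for this rise, and leaving out early replicate 2 or late replicate 1 ended the call, at log2 fold changes of 1.47 and 1.61, while it was 3.63 without early replicate 1. Mouse Tal1 (chr4:114913623-114928952) was at 0.419 and 0 CPM in naïve ESCs, 2.96 and 2.43 in EpiLCs, 0.593 and 0.967 in early and 2.80 and 2.98 in late gastruloids. EpiLCs and late gastruloids overlapped and lay above the other groups. Tal1 rose by 1.96 from early to late (SE 0.43, adjusted p = 6.39e-05) and had fallen by 1.82 from EpiLCs to early gastruloids (SE 0.41, adjusted p = 0.000138). EpiLCs held 57 counts against 3 in naïve ESCs, all 3 of them in replicate 1, a ratio of 15.8 (95% interval 5.15 to 79.1). Early gastruloids held 23 counts against those 3, a ratio of 4.44 (95% interval 1.34 to 23.1) that passed in edgeR (adjusted p = 0.0241) and not in DESeq2 (adjusted p = 0.0876). That call also ended without naïve replicate 2 or early replicate 2, and the log2 fold change ran from 0.79 to 6.09 when 1 library was left out.

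RUNX1 (ENSG00000159216, chr21:34787801-36004667, minus strand) was at 20.9 and 22.6 CPM in naïve H9, 0.489 and 0.238 in primed H9, 0.328 and 0 in primed RUES2-GLR, 3.07 and 2.02 in RA-gastruloids at 24 h and 0.194 and 0.408 at 120 h. Naïve H9 and early RA-gastruloids lay above the remaining groups, which overlapped one another. RUNX1 fell by 6.11 on the log2 scale from naïve to primed H9 (SE 0.28, edgeR adjusted p = 9.16e-19), rose by 3.26 from primed RUES2-GLR to early RA-gastruloids (SE 0.59, adjusted p = 2.04e-05) and fell by 3.24 to late ones (SE 0.48, adjusted p = 1.09e-06). The RUES2-GLR line held 4 counts, all in replicate 1, and without that library the rise was fitted as 8.40. Mouse Runx1 (chr16:92398354-92623037) was at 0.279 and 0.0897 CPM in naïve ESCs, 1.03 and 1.91 in EpiLCs, 0.741 and 0.352 in early and 4.67 and 3.43 in late gastruloids. The late samples were highest and EpiLCs next, whereas naïve ESCs, with 2 and 1 counts, are not shown to lie below early gastruloids (0 counts allow up to 0.419 CPM in naïve replicate 1). Runx1 rose by 2.76 from early to late (SE 0.41, adjusted p = 3.49e-08). EpiLCs held 36 counts against 3 in naïve ESCs, a ratio of 10.01 (95% interval 3.16 to 50.8), and the fall from EpiLCs to early gastruloids (-1.42, adjusted p = 0.00743) ended in DESeq2 (adjusted p = 0.11) and without EpiLC replicate 2 or early replicate 2, with values from -2.16 to -0.79.

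GATA1 (ENSG00000102145, chrX:48786540-48794311, plus strand) had 0 or 1 count in each human library, which is within what a count of 0 allows. Mouse Gata1 (chrX:7825499-7844310) had 3 and 12 counts in naïve ESCs, 2 and 5 in EpiLCs, 17 and 12 in early gastruloids and 1 and 1 in late gastruloids. The late samples had the lowest measured levels, 0.117 and 0.149 CPM, and the ratio of early to late was 7.01 (95% interval 1.77 to 60.6, counting error only). Late samples lay below both early ones, while early gastruloids and naïve ESCs overlapped. Even 0 counts allow up to 0.35 and 0.447 CPM in the late libraries, so late gastruloids are not shown to lie below EpiLCs or naïve replicate 1. The mean of Gata1 was lowest in the group where 8 of the other 9 genes were highest. Reads were counted without strand. In GENCODE, long non-coding RNAs on the opposite strand overlap the spans of KDR, TAL1, RUNX1 and CD34, and of all the mouse genes but Pecam1. Whether exons overlap was not checked, so it is not known whether reads of such RNAs entered these counts.

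**Figure D3:**
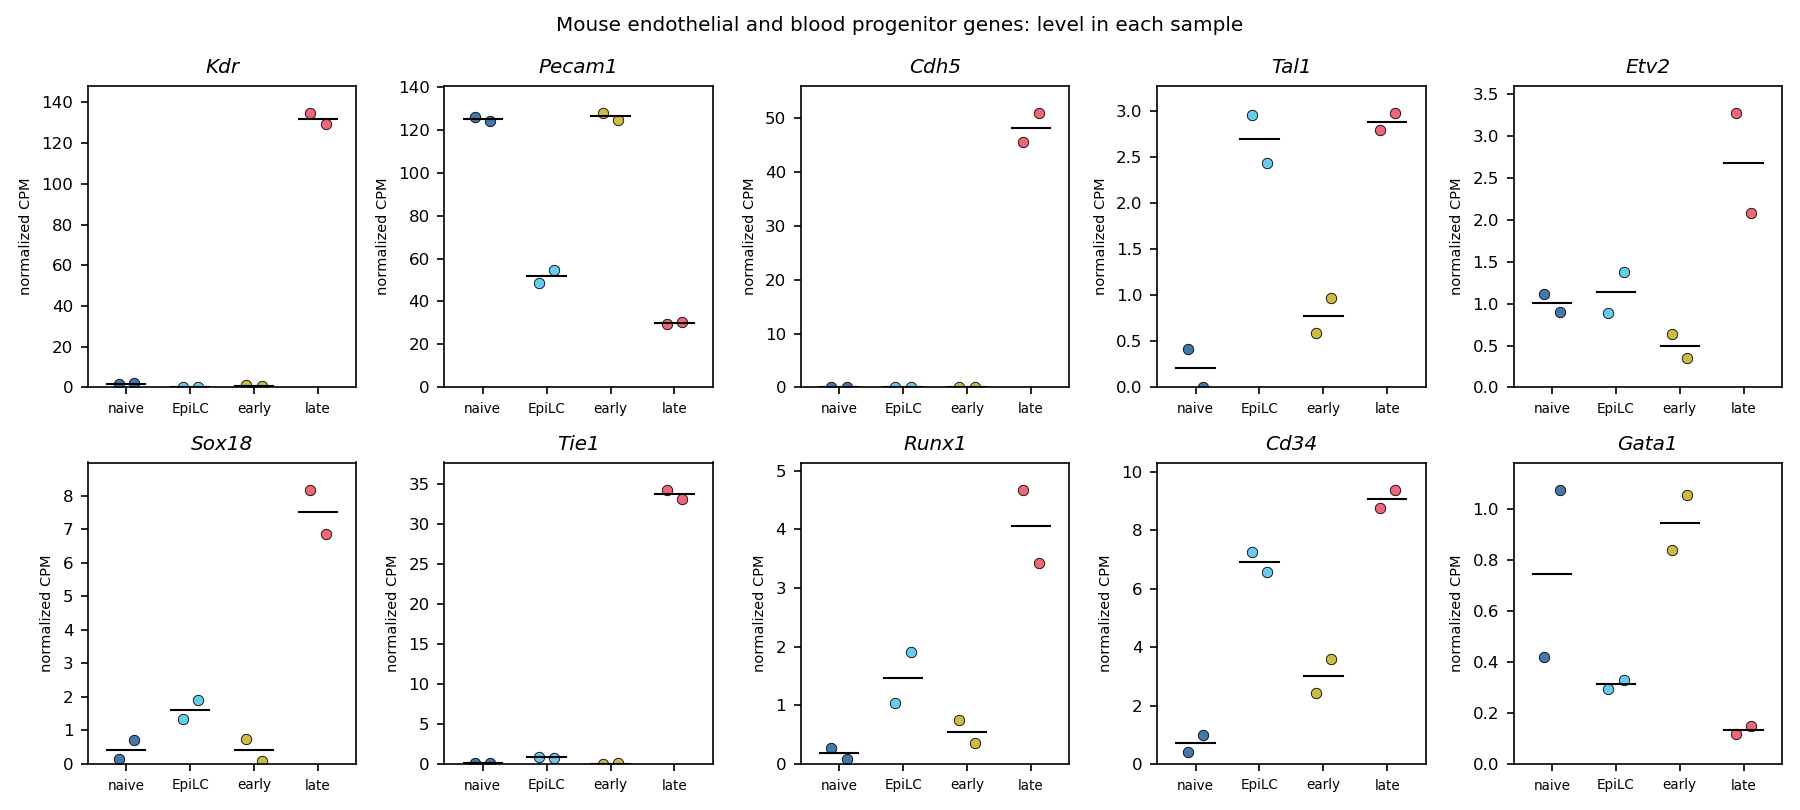
Level of each of the 10 mouse genes (vertical axis, TMM-normalized CPM, own scale per panel) in the 2 replicates (points) and their mean (line) of naïve ESCs, EpiLCs, and early and late gastruloids. The mean of late gastruloids is highest for 8 genes, although for Tal1 they overlap EpiLCs, and lowest for Pecam1 (29.8 CPM) and Gata1 (0.133 CPM, on 1 count in each library, not shown to lie below EpiLCs).

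By level per transcript length (TPM, averaged over replicates), the make-up of the 10 genes differed between groups. KDR was the most abundant in primed H9 (88.4% of the summed TPM of the 10 genes), primed RUES2-GLR (84.6%), early RA-gastruloids (49.5%) and late RA-gastruloids (67.9%), whereas CDH5 led in naïve H9 (47.9%), followed by SOX18 and RUNX1. In mouse, Pecam1 led in naïve ESCs (91.3%), EpiLCs (67.1%) and early gastruloids (91.5%), and Kdr led in late gastruloids (31.0%), followed by Cdh5 and Tie1. The sum over the 10 genes was 28.4, 86.5, 40.8, 19.6 and 46.4 TPM in naïve H9, primed H9, primed RUES2-GLR, early and late RA-gastruloids. It was 72.2, 43.7, 77.0 and 169.6 TPM in mouse naïve ESCs, EpiLCs, early and late gastruloids. At least 1 CPM on average was reached by 7 of the 10 genes in late RA-gastruloids and by 9 in late mouse gastruloids, against 5 and 2 in the early ones. How many of all genes reach 1 CPM in each group was not counted, so these numbers are a description only.

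The change from early to late was compared between the species in 1 edgeR fit of all 18 samples over 14006 genes matched by symbol, in which an interaction is the human log2 fold change minus the mouse one. Of the 10 genes, 1 interaction was positive and 5 were negative at the thresholds given above (35.4% of all genes passed, 16.7% higher and 18.7% lower). PECAM1 had the positive one, 5.19 (SE 0.47, adjusted p = 7.68e-12). The negative ones were TIE1 (-9.35, SE 0.56, adjusted p = 1.62e-16), SOX18 (-6.31, SE 0.67), RUNX1 (-5.86, SE 0.64), KDR (-5.28, SE 0.22) and CDH5 (-4.52, SE 1.78, adjusted p = 0.0287). Leaving out 1 library moved SOX18 as far as -8.71 (without early mouse replicate 1) and TIE1 from -11.49 (without early mouse replicate 2) to -8.13 (without early mouse replicate 1), and both still passed. The estimates of TIE1 and CDH5 rest on 1 or 2 counts in an early group, and leaving out early RA-gastruloid replicate 1 brought that of CDH5 to -0.89, where it did not pass. It ran to -7.43 without early mouse replicate 1 and did not pass without early mouse replicate 2 (-3.92, adjusted p = 0.0517). CD34 (0.88, SE 0.44), ETV2 (-0.59, SE 0.61), TAL1 (0.35, SE 0.85) and GATA1 (5.10, SE 3.29) did not pass, and their adjusted p were 0.0874, 0.415, 0.749 and 0.185. GATA1 had at most 1 count in a human library, and its value ran from 2.85 to 5.61 when 1 library was left out. An interval of 2 SE to either side of each of these differences reaches past 1 on the log2 scale, so a difference that large between the species is not shown to be absent. Without early mouse replicate 1 the interaction of CD34 passed (adjusted p = 0.0403).

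The change from naïve to primed cells was compared in the same way, a comparison added after the data were seen. KDR (9.44, SE 0.55, edgeR adjusted p = 3.29e-17) and TIE1 (3.67, SE 1.53, adjusted p = 0.0357) had positive interactions, and RUNX1 (-9.46, SE 0.72), SOX18 (-5.78, SE 0.69) and CD34 (-3.61, SE 0.52) negative ones, where 42.1% of all genes passed (19% higher and 23.2% lower). RUNX1 and SOX18 fell from naïve to primed H9 and rose from mouse naïve ESCs to EpiLCs, while KDR rose in H9 and fell in mouse. The call for TIE1 ended when any of 4 libraries was left out. The median interaction over all genes was -0.18.

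Other genes of VEGF and angiopoietin signalling were followed in a list of 13 genes, all tested. The list also held apelin (APLN) and its receptor (APLNR). From early to late mouse gastruloids, 9 rose and 1 fell, with a median log2 fold change of 2.18, where 20.1% of all tested genes rose and 19.1% fell. Nrp1, a coreceptor for VEGF, went from 0.821 ± 0.166 to 197.8 ± 4.36 CPM (SD, n = 2), and Flt1, a decoy receptor for VEGF, from 2.65 ± 0.11 to 67.5 ± 0.28 CPM. Angpt1, the TEK ligand, had 0 counts in early gastruloids and 691 in late ones, at least 477-fold higher. In RA-gastruloids, 4 of the 13 rose and 6 fell (median -0.26), where 11.8% of all genes rose and 13.2% fell. The change differed between the species for 10 of the 13, 2 higher and 8 lower in human, beside 16.7% and 18.7% of all genes. NRP1 (2.79), NRP2 (3.18), ANGPT1 (4.32) and the lymphangiogenic ligand VEGFC (3.75) rose on the log2 scale, and the ligands VEGFA (-2.90), VEGFB (-1.82) and PGF (-1.37) fell, as did the receptor FLT1 (-1.79). APLNR, the apelin receptor, went from 2019 ± 4.44 CPM at 24 h down to 24.2 ± 2.27 CPM at 120 h in RA-gastruloids. APLN went from 15.4 ± 1.51 to 1.23 ± 0.45 CPM over the same step. Apart from these apelin genes, as many of the listed genes fell as rose in RA-gastruloids. FLT1 shared the high level of KDR in primed human ESCs: it rose from 1.002 ± 0.53 CPM in naïve H9 to 110.2 ± 1.35 CPM in primed H9 and was at 180.0 ± 4.47 CPM in primed RUES2-GLR.

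In a list of 19 other endothelial genes, 9 of the 15 tested rose and 1 fell from early to late RA-gastruloids (median 1.38), and 12 of the 18 tested rose and 2 fell in mouse (median 2.10), beside 11.8% and 13.2% of all human and 20.1% and 19.1% of all mouse genes. FLI1 and ERG, ETS factors of endothelium, rose in both: FLI1 from 0.192 ± 0.272 to 4.45 ± 1.39 CPM in human, and Fli1 from 0 to 146 counts in mouse, at least 100.7-fold. PLVAP, a protein of fenestrated capillaries, rose from 1 to 128 counts in human (ratio 85.4, 95% interval 15.1 to 3401), and Plvap by 3.89 on the log2 scale in mouse (edgeR adjusted p = 1.78e-24). SOX17, a factor of endoderm and arterial endothelium, fell by 4.91 in human (21.9 ± 0.35 to 0.72 ± 0.01 CPM) and rose by 6.04 in mouse (0.417 ± 0.032 to 27.9 ± 0.61 CPM). From naïve to primed H9, 6 of the 15 tested rose and 3 fell, beside 25.5% and 22.3% of all genes. Naïve H9, where CDH5 was highest, also held 36.8 CPM of VWF on average against 1.28 in primed H9. In naïve H9, PLVAP, FLI1 and ERG were under 0.2 CPM and EMCN, ROBO4, ICAM2 and ECSCR were at 0.

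Of 10 arterial and venous genes, 4 rose and 1 fell in RA-gastruloids, and 6 of 9 tested rose and 2 fell in mouse, beside 11.8% and 13.2% of all human and 20.1% and 19.1% of all mouse genes. NR2F2, a factor of venous endothelium and of mesenchyme, rose from 0.687 ± 0.115 to 225.0 ± 7.65 CPM in human and from 0.585 ± 0.081 to 203 ± 0.18 CPM in mouse. The arterial genes DLL4 (3.61 in human, 2.92 in mouse), EFNB2 (1.90 and 2.62) and HEY1 (1.17 and 2.42) rose in both on the log2 scale. Some others did not: the Notch receptor NOTCH1 fell in both (-1.67 and -1.39), Notch4 fell in mouse (-2.37) with NOTCH4 at 0.31 in human, and HEY2, a target of Notch, was at -0.99 in human, under the fold threshold, while Hey2 rose by 2.90 in mouse. HEY1 and these 3 were named after their values were seen.

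In a list of 14 other blood progenitor genes, 5 of the 10 tested rose and 2 fell in each species from early to late (of all tested genes, 11.8% rose and 13.2% fell in human, 20.1% and 19.1% in mouse). LMO2, a partner of TAL1, rose from 2.06 ± 0.35 to 9.63 ± 0.64 CPM in human and by 1.34 on the log2 scale in mouse. KIT, the stem cell factor receptor, rose by 3.24 and 1.60, and CBFA2T3, a corepressor that binds TAL1, by 2.40 and 2.62. LYL1, the closest relative of TAL1, rose in mouse (0.181 ± 0.117 to 3.54 ± 1.43 CPM) and did not pass in human. GATA2 fell by 1.89 in human, from 5.43 ± 0.75 to 1.28 ± 0.80 CPM, and Gata2 was at 0.70 in mouse, under the fold threshold. Myb fell by 2.71 in mouse, and MYB rose by 1.27 in human. ITGA2B, an integrin of megakaryocytes, fell by 1.52 in human, and Itga2b rose by 1.72 in mouse by edgeR and did not pass in DESeq2 (adjusted p = 0.072). Human MYB and ITGA2B and mouse Gata2 were named after their values were seen. Among 4 tested erythroid genes, 0 rose and 1 fell in human by edgeR and by DESeq2 (2 at an unadjusted p under 0.05), and 1 rose and 1 fell in mouse. The embryonic globin Hbb-bh1 had 9 and 24 counts in late mouse gastruloids (1.05 and 3.57 CPM) and 0 in the other 6 mouse libraries. It was the only globin tested, and it was abundant enough for that only through the late samples. Its edgeR call (adjusted p = 2.41e-08) is therefore no separate support for the rise, and it did not pass in DESeq2 (adjusted p = 0.186). Hba-x had 3 and 5 counts in late mouse gastruloids. In human, HBA1 had 8 and 4 counts in naïve H9, no other globin exceeded 4 counts in a library, and all 6 were at 0 in late RA-gastruloids.

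The relatives of RUNX1 were followed too. RUNX3 rose from 0.605 ± 0.045 CPM in primed RUES2-GLR to 13.4 ± 2.28 CPM in early RA-gastruloids and fell to 1 count in late ones (272 counts against 1, ratio 408, 95% interval 72.5 to 16155), in the same directions as RUNX1. In mouse, Runx3 (1.07) and Cbfb (1.01), the shared cofactor, rose just past the threshold from early to late, and both calls ended in other settings. Of the 9 tested ETS family genes, relatives of ETV2, 1 rose and 3 fell in RA-gastruloids and 3 rose and 1 fell in mouse, beside 11.8% and 13.2% of all human and 20.1% and 19.1% of all mouse genes. ETS1 rose in both, from 3.34 ± 0.16 to 71.4 ± 9.33 CPM in human and from 10.3 ± 0.08 to 70.4 ± 4.22 CPM in mouse.

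**Figure D4:**
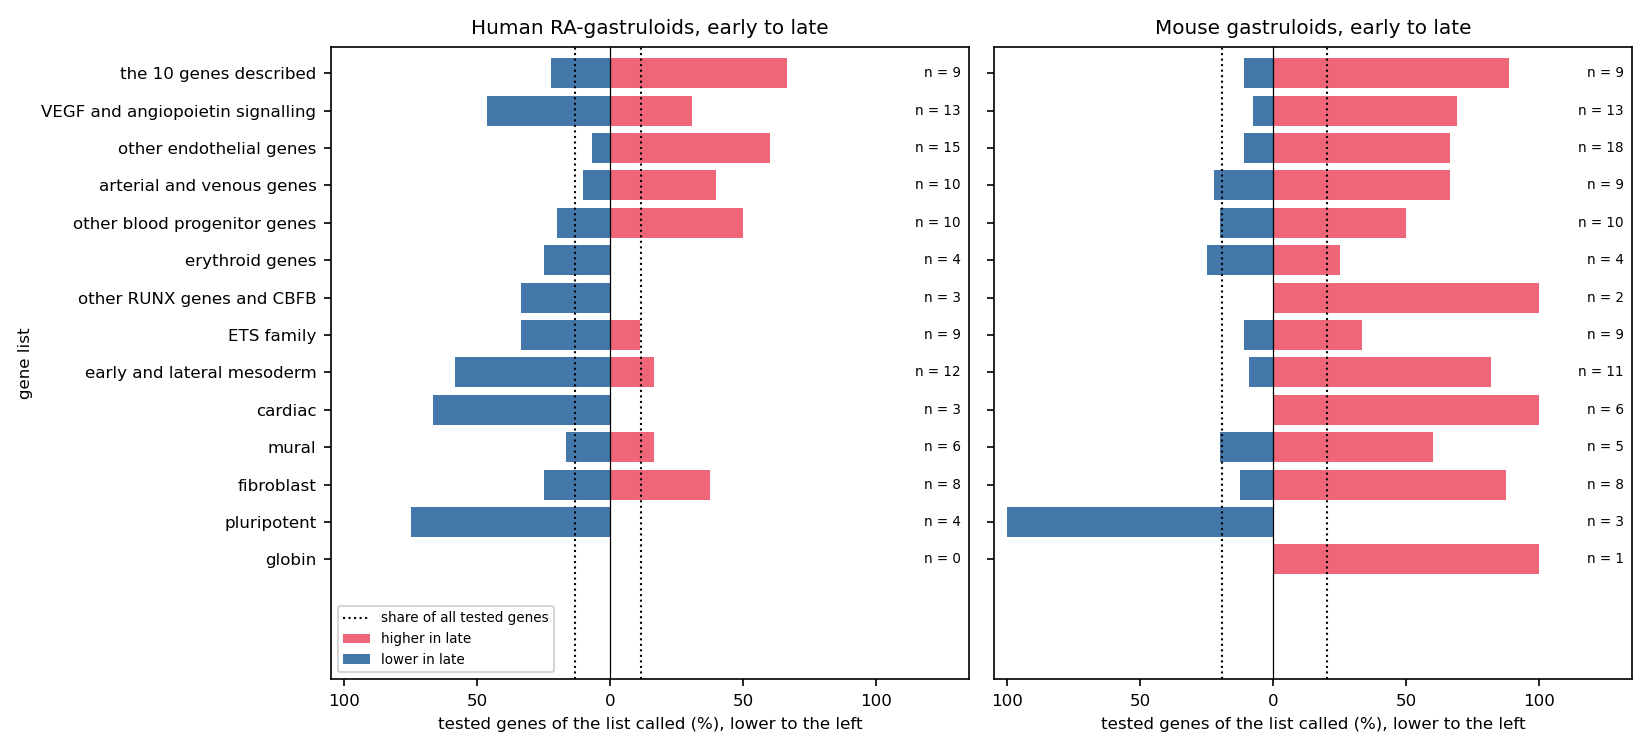
Share of the tested genes of each list that were called higher (right of 0) or lower (left of 0) in late than in early gastruloids (horizontal axis, percent), with the number tested (n) and the share over all tested genes as dotted lines (11.8% and 13.2% in human, 20.1% and 19.1% in mouse). The endothelial, arterial and venous, and blood progenitor lists have more genes higher than lower in both species. The mesoderm and cardiac lists have more genes lower in human and more higher in mouse. So does the VEGF list, where in human this rests on the apelin genes APLN and APLNR.

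In mouse, markers of other mesodermal cells rose alongside the endothelial genes: 9 of 11 early and lateral mesoderm genes (1 fell, median log2 fold change 6.98), 6 of 6 cardiac genes, 7 of 8 fibroblast genes and 3 of 5 mural genes from early to late gastruloids, where 20.1% of all tested genes rose and 19.1% fell. Hand1, a factor of lateral and extraembryonic mesoderm, went from 0.785 ± 0.133 to 175.8 ± 1.61 CPM (SD, n = 2). The summed cardiac level was 8.74 and 7.48 CPM in early and 150.5 and 149.8 CPM in late samples, with Tnni1 the most abundant in all 4 and none at 0. The summed fibroblast level was 185 and 196 CPM in early and 856 and 895 CPM in late samples, led by Fbln1 in 3 of them and by Col3a1 in late replicate 2, and Col3a1 itself had 3 counts in early and 5250 in late gastruloids. In RA-gastruloids, 11.8% of all tested genes rose and 13.2% fell. There, 0 of 3 tested cardiac genes rose and 2 fell, by edgeR and by DESeq2 (2 at an unadjusted p under 0.05), and 3 of 8 fibroblast genes rose and 2 fell. Of 12 early and lateral mesoderm genes 2 rose and 7 fell (median -2.23), with HAND1 falling from 9.72 ± 1.33 CPM to 0 counts. The 12 include NPAS4, which is not a mesoderm marker, was analysed in human alone and did not pass here (-2.05, edgeR adjusted p = 0.127). Of 6 human mural genes 1 rose and 1 fell, and 1 of the 5 mouse mural genes fell, each near the share of all genes. Of the pluripotency genes, 3 of 4 human and 3 of 3 mouse genes fell from early to late and 0 rose, by edgeR and by DESeq2 (in either direction, 4 and 3 were at an unadjusted p under 0.05). The summed cardiac level in RA-gastruloids was 4.90 and 2.02 CPM in early and 1.31 and 0.917 CPM in late samples, with 4 of 6 genes at 0 in each late sample, and the summed fibroblast level was 1730 and 1677 CPM in early and 1348 and 1092 CPM in late ones, led by FBLN1. The part of these cells in the endothelial results was not tested.

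Some fibroblast and mesoderm markers also differed between the H9 states, beside the high CDH5, SOX18 and RUNX1 of the naïve cells. Of 8 fibroblast genes, 4 fell and 2 rose from naïve to primed H9, where 22.3% of all tested genes fell and 25.5% rose. Of 12 early and lateral mesoderm genes (NPAS4 again included) 7 fell and 1 rose. The summed fibroblast level was 801 and 785 CPM in naïve and 884 and 922 CPM in primed samples, led by COL1A1 (361 and 372 CPM) in naïve and by THY1 (381 and 395 CPM) in primed cells. COL3A1 had 6454 counts in naïve H9 and 3 in primed H9, and DCN (262 counts in naïve) and LUM (67) were at 0 in primed H9. Of the other blood progenitor genes, 4 of 10 tested rose and 2 fell from naïve to primed H9. Of 10 arterial and venous genes, 3 rose and 2 fell there. Among the genes of these lists that fell, the naïve cells held 184 ± 23.3 CPM of GATA2, 24.1 ± 3.76 of NR2F2 and 41.3 ± 11.4 of HAND1 (SD, n = 2), each under 0.5 CPM in primed H9. The part of such cells in the naïve levels of CDH5, SOX18 and RUNX1 was not tested.

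The genes whose log2 CPM followed a member most closely are given as a description, over samples that share groups and depth. Over the 10 human samples, MAMLD1 (Pearson r = 0.98) and LEKR1 (0.97) were most like TAL1, GAL3ST1 and FAM131B (0.99 each) most like KDR, and SLC23A2 and NSDHL (0.98 and 0.976) most like CDH5. Over the 8 mouse samples, Clec1b and Hoxb3 (r = 0.9999 and 0.9998) were among the 5 most like Cdh5, Wbp1 and Tes (0.997 each) were most like Kdr, and Glrx2 (0.987) was among those most like Tal1. None of the 5 genes most like each of these 6 was on the endothelial or blood lists, and for Kdr and Cdh5 the 2 late samples stand far above the other 6.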

How the data were processed

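RNA was measured in 18 samples. By the study's methods, libraries of poly(A) RNA were read paired-end (either of 2 configurations, which one per sample not stated), and reads were aligned to GRCh38 or GRCm39 with STAR and counted per gene by featureCounts with default settings, that is without strand. The authors deposited whole-number read counts per gene, not normalized, 1 table per species. The submitters' processing notes name bcl2fastq 2.20, FastQC, Trimmomatic 0.39, STAR and featureCounts. The annotation release is not given in the sources used here. Replicates of a stage were collected together, so p-values measure only the spread between 2 such samples.

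The deposited counts were analysed with R 4.3.3, edgeR 4.0.16 (TMM, filterByExpr, glmQLFit and glmQLFTest, a model with 1 coefficient for each group, fitted in each species), limma 3.58.1 and DESeq2 1.42.0. Levels, sequences (Biopython 1.88), intervals (scipy 1.17.1) and plots (matplotlib 3.10.9) were made in Python 3.11.15 with pandas 2.3.3 and numpy 2.4.6. Tested were 18300 human and 15003 mouse genes, and p-values were Benjamini-Hochberg adjusted over all of them. TPM used the gene lengths of the deposited tables. Genes were named by identifier from GENCODE v44 (44876 of 44910) and M39 (29486 of 29720). No sample column was left unmapped. In simulated counts for the early to late comparison, edgeR recovered 200 of 200 changed genes in each species, with 4 false calls among 16994 human and 1 among 14285 mouse genes. This does not give the power or the false calls for genes of a few counts, where several calls ended in DESeq2 or without 1 library. A count of 0 allows up to 3 counts. Ratios of counts, given for many comparisons in which a group held 1 to 3 counts, carry an exact (Clopper-Pearson) 95% interval. Other such comparisons, as of Tie1 in EpiLCs or of COL3A1, are given by edgeR or as counts. Against 0 counts the bound uses 3 counts over the group. Intervals and floors cover counting error only. The 10 genes and the other lists were chosen with earlier results of these data known, and the lists carry no test. Listed genes named in the text were those called with the largest fold changes among genes with at least 1 CPM in both replicates of the higher group and groups that do not overlap, up to 4 per list in the gastruloid comparisons and 2 elsewhere, besides the receptors, ligands and partners named for their role after their values were seen. Genes most alike were the 5 with the highest Pearson r of log2 CPM (prior count 2). HBE1 and mouse Hemgn, Npas4, Tdgf1, Hba-a1, Hbb-bs and Hbb-bt were not found by these symbols and were not analysed here. The alternatives were DESeq2, its size factors, upper-quartile scaling, no filter, a fit of only the compared groups, a replicate block, the adjusted p alone, TPM, and leaving out each library.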

Additional observations from a re-analysis of the deposited data

Results flagged for a closer look

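The species differed in 11 changes by the interaction test of edgeR (human minus mouse log2 fold change, Benjamini-Hochberg adjusted p under 0.05), which is what marked them. From early to late gastruloids these were KDR (-5.28), TIE1 (-9.35), SOX18 (-6.31), RUNX1 (-5.86), CDH5 (-4.52) and PECAM1 (5.19). From naïve to primed cells these were KDR (9.44), TIE1 (3.67), RUNX1 (-9.46), SOX18 (-5.78) and CD34 (-3.61). Groups of 2 samples are too small for a search for outlying samples.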

How the results depend on the processing

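With 2 libraries per group and as few as 3681739 counts in one of them, genes of a few counts limit these results. Of the members' and listed genes' log2 fold changes, 3433 of the recomputed values kept their direction and side of the threshold, 83 lost the call, 3 gained it and 21 changed sign, and no member that changed sign had passed the test. Between primed lines, KDR became 0.0265 with DESeq2's size factors, 0.0625 with upper-quartile scaling, 0.0548 with only the compared groups and 0.00032 in DESeq2, and ran from -0.173 to 0.0428 when 1 library was left out. TAL1 there ran from -4.285 to 1.24 and RUNX1 from -5.327 to 0.196. Leaving out 1 library gave -1.273 to 5.319 for TAL1 from RUES2-GLR to early RA-gastruloids, -0.15 to 0.486 for Etv2 from naïve ESCs to EpiLCs, -2.316 to 1.758 for Sox18 and -0.00421 to 0.0316 for Pecam1 from naïve ESCs to early gastruloids, -0.317 to 1.804 for the TAL1 interaction of early to late, and -0.618 to 2.816 for GATA1 and -6.141 to 0.069 for TAL1 in that of naïve to primed. Sox18 from naïve ESCs to early gastruloids was -0.0282 in DESeq2. The cause was not tested.

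The adjusted p alone, without the fold threshold, was added after the data were seen. It called 13777 genes from naïve to primed H9 (8747 with it), 10710 between primed lines (5357), 10218 from RUES2-GLR to 24 h RA-gastruloids (5413), 9519 from 24 h to 120 h (4564), 9900 from naïve ESCs to EpiLCs (4465), 9410 from EpiLCs to early gastruloids (3143), 9445 from naïve ESCs to early gastruloids (3451), 11415 from early to late in mouse (5884), and 8305 (4953) and 8994 (5901) interactions. Of the 10 genes described, leaving out 1 library gave 0 to 2 calls between primed lines, 5 to 8 from EpiLCs to early gastruloids and 1 to 3 from naïve ESCs to early gastruloids. The lowest of these came without RUES2-GLR replicate 1, EpiLC replicate 2 and naïve replicate 2, and a fit of only the compared groups also gave 1 in the last.

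Same-numbered replicates did not deviate together (correlations of deviations from the group means from -0.112 to 0.0684 over 10 pairs of human groups and from -0.0483 to 0.00806 over 6 pairs of mouse groups), so the samples share only a number. A replicate block left every count of called members as it was and moved Sox18 from naïve ESCs to early gastruloids to -0.0074.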
